A study of Danio rerio with 7 samples.

Results

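Mitochondrial ribosomal protein genes code for the protein parts of the ribosome that works inside mitochondria. They were taken as the gene rows whose symbol starts with mrpl or mrps without regard to case, which gave 64 of the 16394 gene rows in the deposited tables. The table of Ensembl names holds 75 such symbols, and the other 11 had no row in any of the 7 tables and are not analysed here. By the usual ribosome nomenclature 43 of the 64 proteins sit in the large subunit and 21 in the small subunit. The symbol MRPS18A was counted with the large subunit, where its protein is found in mammals. A bacterial ribosome has a counterpart for 36 of the proteins, 25 large and 11 small, and 28 have none, 18 large and 10 small. Many symbols are written in human style in the name table and are printed here as it gives them.

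The mitochondrial ribosome makes only the few proteins coded by mitochondrial DNA, all of them subunits of the respiratory chain and ATP synthase. Its RNAs are made in the mitochondrion, while all of its proteins are coded in the nucleus, translated in the cytosol and imported. Heart muscle is rich in mitochondria, and inherited defects of several of these proteins cause cardiomyopathy in humans.

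The cells came from ventricles of adult zebrafish, dissociated 7 days after cryoinjury and sorted 1 per well into 384-well plates. All fish carried Tg(nppa:mCitrine), in which the promoter of the natriuretic peptide gene nppa drives a fluorescent reporter, and the gate took cells bright for the reporter. The controls were hmga1a+/+ (wild type, 3 plates) and the comparison group was hmga1a-/- (mutant, 4 plates), so the question was how transcripts of this reporter gate differ when the chromatin protein gene hmga1a is mutated. Cells of 12 hearts were used per genotype, the labels tie no plate to an animal, and p-values therefore cover only plate-to-plate spread, part of which may be technical. The series description gives 768 isolated cells per genotype, while the plates hold 1152 wild-type and 1536 mutant wells. The sorted colour is given as mCitrine in the series description but as mCherry in the sample protocols.

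CEL-seq2 counted molecules near the 3' end of each transcript. Of 2688 wells 1033 were kept, those with 1000 or more transcripts, leaving aside spike-ins and mitochondrially encoded genes recognised by symbol. Kept wells held 246040 to 725234 such transcripts per plate, with a median of 1650 to 2672 per well. No kept well was identical to one of another plate. The flow cell in the file names put 1 wild-type and 2 mutant plates in run 1, and 2 and 2 in run 2. The hmga1a transcript stood at 111.7, 125.4 and 105.4 transcripts per 1000000 (CPM) in the wild-type plates and at 51.7, 50.8, 10.2 and 36.3 CPM in the mutant plates. The groups did not overlap, with an edgeR adjusted p of 0.107 (log2 fold change -1.84, SE 0.42). The 10 gene rows found for a list of 12 cardiomyocyte markers made up 11.4% to 19.2% of transcripts in every plate. TNNI1 and ACTA1 each stood in more than 1 of these rows, while ttn.1, ttn.2, cmlc2 and vmhc had none. Of the kept wells 982 had at least 2% of transcripts from these rows.

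Transcripts of the family were a small and slightly lower share of the total in mutant plates. They made up 0.333%, 0.367% and 0.357% of the transcripts in kept wells of wild-type plates 1 to 3. The mutant plates 1 to 4 held 0.272%, 0.291%, 0.341% and 0.324%. Wild-type plate 1 lay below mutant plate 3, so the groups overlapped. The mean was 0.352% ± 0.0175 (SD, n = 3) in wild type and 0.307% ± 0.0313 in mutant plates (SD, n = 4), a difference of -0.0451 percentage points. Within run 1 both mutant plates lay below the wild-type plate, with a difference of -0.0514. Within run 2 both mutant plates lay below both wild-type plates, and the difference was -0.0292. Without both mutant plates of run 1, a choice made after seeing the data, it was -0.0196 over the other 5 plates. No p-value is given for a sum over the family, because its members were chosen with results of these data known.

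In the wells with at least 2% cardiac marker transcripts the plates no longer overlapped. The share there was 0.358%, 0.375% and 0.369% in wild-type plates against 0.295%, 0.318%, 0.348% and 0.339% in mutant plates. The means were 0.368% ± 0.00836 (SD, n = 3) and 0.325% ± 0.0234 (SD, n = 4), with differences of -0.0518 points in run 1 and -0.0286 in run 2. This set of wells is a range of marker share, not a cell type, and 36 kept wells lay between 1% and 4%. With each kept well given equal weight, the shares were 0.337%, 0.354% and 0.352% in wild type and 0.275%, 0.316%, 0.343% and 0.325% in mutant plates.

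**Figure D1:**
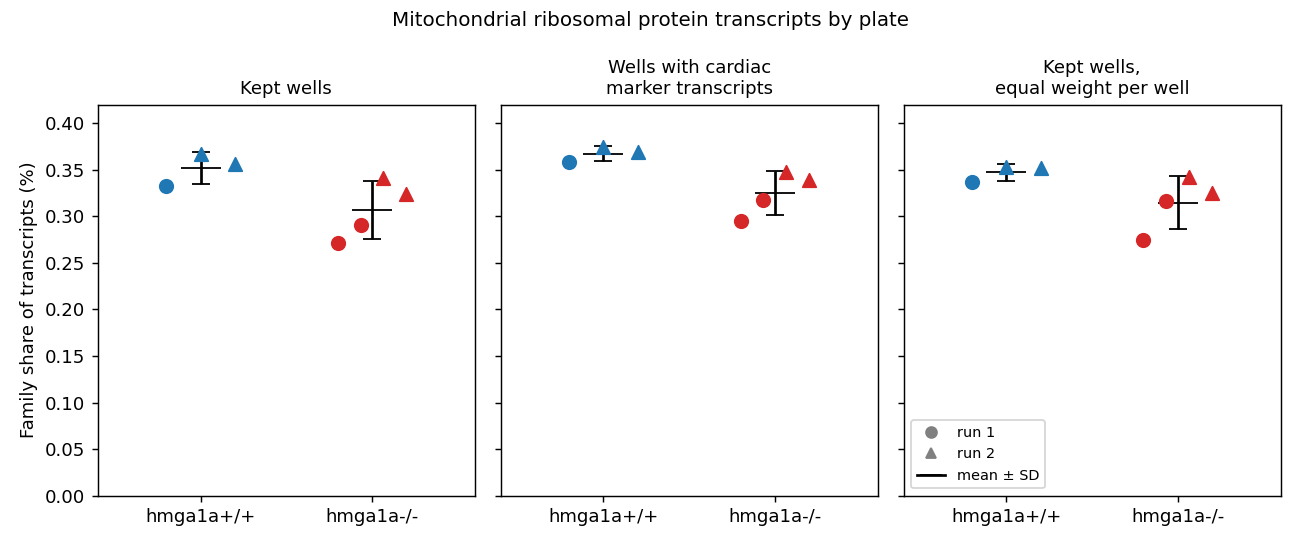
Family share of transcripts in percent (y axis) for each plate of hmga1a+/+ (blue, 3 plates) and hmga1a-/- fish (red, 4 plates). Circles are run 1, triangles run 2, and black bars the mean ± SD. In all kept wells the lowest wild-type plate (0.333%) lies below the highest mutant plate (0.341%), while in wells with cardiac marker transcripts every mutant plate lies below every wild-type plate.

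Other plate measures also differed in mean between the genotypes in all kept wells. As with the family share there, the plates overlapped in each of them. Cardiomyocyte marker transcripts were 17.5% ± 1.92 of the total in wild-type and 13.3% ± 2.17 in mutant plates (SD, n = 3 and 4). Mitochondrially encoded transcripts were 4.42% ± 0.982 and 5.87% ± 1.62 of all transcripts other than spike-ins. The most abundant gene row without a symbol, ENSDARG00000080337, took 4.56% to 6.39% of transcripts in wild-type plates and 5.12% to 14.4% in mutant plates. Lacking a symbol, it could not be sorted into mitochondrially encoded or nuclear genes. It stayed in the total and in the filter on wells. With that row left out of the total, a choice made after seeing the data, the family share was 0.371% ± 0.0146 in wild-type and 0.338% ± 0.0209 in mutant plates (SD, n = 3 and 4), and the difference was -0.0352 points in run 1 and -0.0233 in run 2. In the cardiac marker wells the family was not alone in separating the plates. Cardiomyocyte markers there summed to 1673 to 1959 transcripts per 10000 in wild-type plates and to 1236 to 1657 in mutant plates. ENSDARG00000080337 took 2.51% to 3.38% there in wild-type plates and 3.41% to 10.5% in mutant plates. Mitochondrially encoded transcripts still overlapped, at 2.45% to 4.00% in wild-type and 2.93% to 4.91% in mutant plates.

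Markers of other cell types were scarce in most plates. The 7 gene rows found for a list of 12 macrophage and leukocyte markers summed to 1.06 to 1.5 transcripts per 10000 in wild-type plates. In mutant plates they summed to 17.1 in plate 1, led by cd74a, to 0 in plate 2, to 0.0388 in plate 3 and to 0.137 in plate 4. The 8 rows for 9 fibroblast and epicardial markers gave 0.207 to 2.27 per 10000 in wild-type and 0.0194 to 0.667 in mutant plates. The 6 rows for 8 endocardial and endothelial markers, 1 for 6 erythrocyte and 4 for 5 thrombocyte markers stayed at or below 0.468 per 10000 in all plates. The erythrocyte row was SLC4A1, and none of the globin genes on that list was matched. The macrophage markers of mutant plate 1 were also present in its cardiac marker wells (18.7 per 10000), and their part in the lower family share of that plate was not tested. The family share in the other 51 kept wells, which fell short of the cardiac marker share, was 0.0217%, from 32 family transcripts, and 61.8% of the transcripts of those wells came from ENSDARG00000080337.

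Single wells held few family transcripts. The median kept well held 5 to 9.5 family transcripts per plate, from a median of 4 to 6 different members. To compare wells of unequal depth, each kept well was thinned to 1000 UMIs by a single random draw, which left out 7 shallower wells. How far the thinned values would move with another draw was not tested. A thinned well then held 3.36, 3.6 and 3.48 family transcripts on average in wild-type plates against 2.82, 3.24, 3.35 and 3.35 in mutant plates. The median was 3 in every plate. At least 4 family transcripts were found in 43.3%, 46.5% and 46.5% of thinned wild-type wells and in 34.1%, 38.6%, 39.9% and 38.3% of thinned mutant wells, with no overlap between the genotypes. That separation depended on the cut. With at least 3 family transcripts the genotypes overlapped. They also overlapped with 8 or more, found in 5.15% to 6.06% of wild-type and 3.03% to 7.09% of mutant wells. Thinned wells with no family transcript made up 8.25% to 11.6% in wild-type and 6.36% to 16.7% in mutant plates, and here the genotypes overlapped. The variance between thinned wells was 1.41 to 1.83 times the mean in all plates, above the value of 1 that counting alone gives. Kept wells included 5 to 12 per plate short of the cardiac marker share, where the pooled family share was 0.0217%. Their part in this spread and in the wells with no family transcript was not tested.

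**Figure D2:**
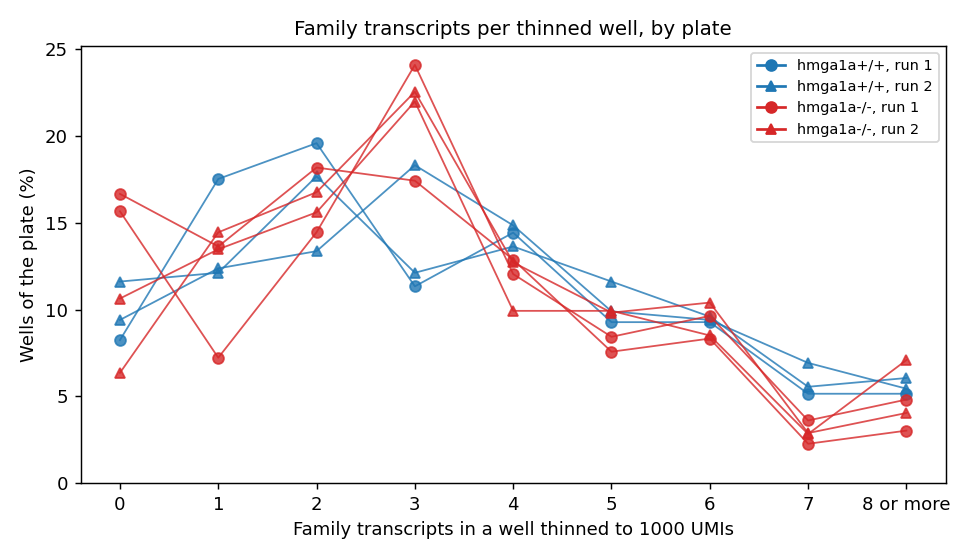
Percent of the wells of each plate (y axis) that held a given number of family transcripts after thinning to 1000 UMIs (x axis). Blue lines are wild-type and red lines mutant plates, circles run 1 and triangles run 2. All plates have a median of 3, and the mutant lines hold less of their area at 4 or more transcripts (34.1% to 39.9% of wells) than the wild-type lines (43.3% to 46.5%). At cuts of 3 or more and of 8 or more the genotypes overlap.

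No single member passed the test. Of the 64 members 55 had enough transcripts for the filter, and none had an adjusted p under 0.05 in edgeR, DESeq2 or limma. Of all 2798 tested genes 0.5% were called by edgeR, 0.25% in each direction, 1.68% by DESeq2 and 0.715% by limma. DESeq2 gave no adjusted p for some members, among them MRPL17, MRPL51, MRPS10, MRPS9 and mrps28, which were counted as not called. At an unadjusted edgeR p under 0.05 there were 3 members, all lower in mutant plates, and 12.8% of all genes tested reached that level in either direction and 5.18% as lower. The median log2 fold change, mutant minus wild type, was -0.13 over the 55 members and 0.025 over all tested genes. It was negative for 34 members (61.8%) and for 48.1% of all genes. The middle 50% of members lay between -0.36 and 0.14. The median SE of a member was 0.37. In wells with cardiac marker transcripts 0 of 55 members were called by edgeR, DESeq2 or limma, where edgeR called 1.05% of all 2582 tested genes, 0.465% as higher and 0.581% as lower, DESeq2 2.29% and limma 0.93%. An unadjusted edgeR p under 0.05 was reached by 3 members, all lower, against 14.2% of all genes in either direction and 6.35% as lower. The median there was -0.12. In wells thinned to 1000 UMIs 22 members passed the filter, and their median was 0.044, while the same 22 members had a median of -0.071 without thinning.

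**Figure D3:**
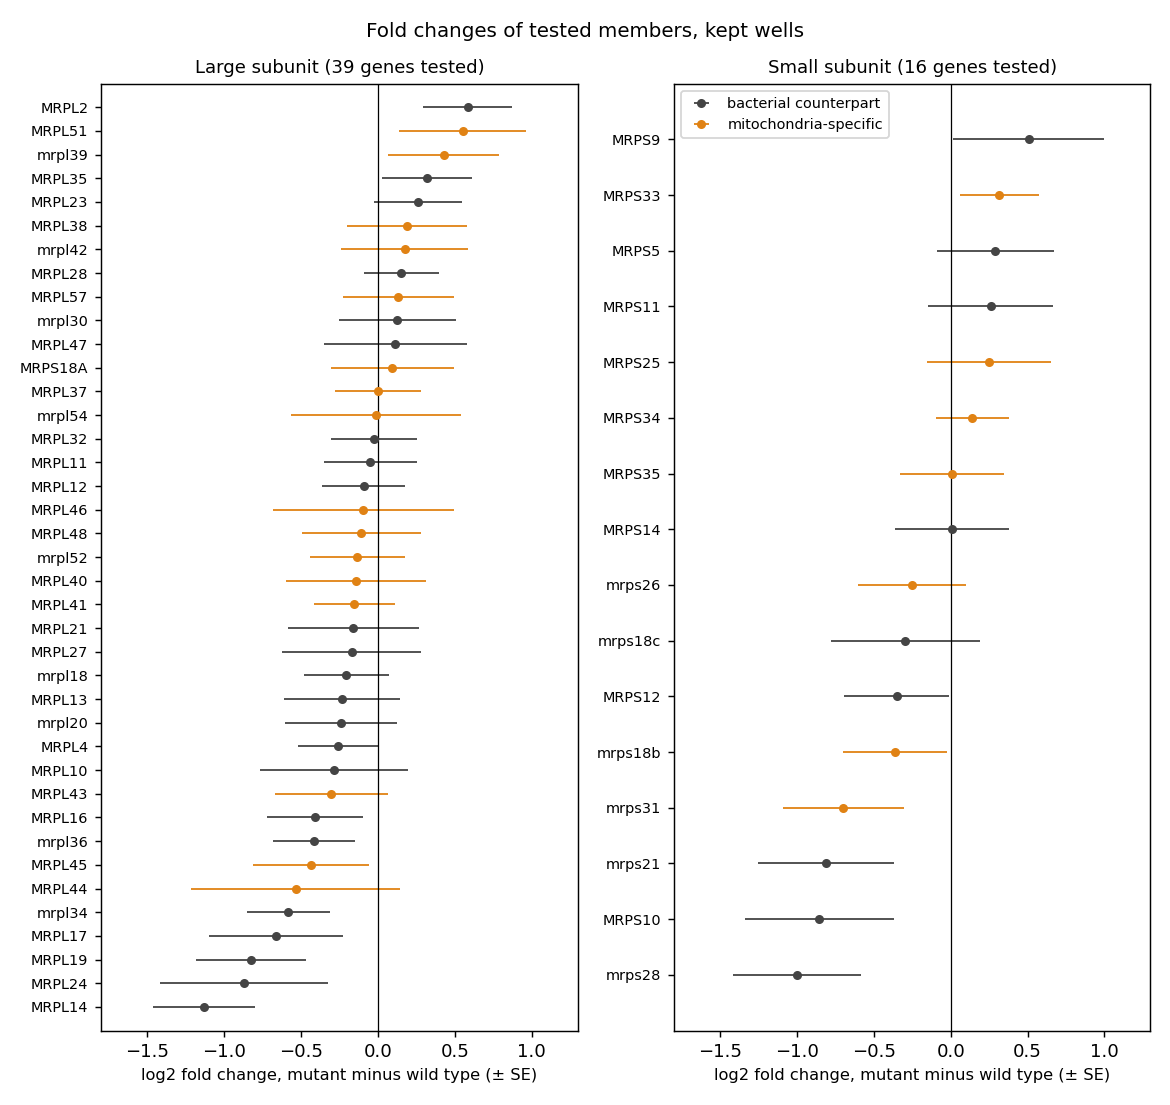
Log2 fold change, mutant minus wild type, with its SE (x axis) for the 39 large-subunit and 16 small-subunit members tested in kept wells. Dark points are proteins with a bacterial counterpart and orange points mitochondria-specific ones. Values run from -1.13 (MRPL14) to 0.58 (MRPL2), and none passed the adjusted threshold.

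Both subunits had members on either side of 0. Of 39 tested large-subunit genes 26 had a negative fold change (median -0.13), and of 16 small-subunit genes 8 (median -0.12). Large-subunit transcripts were 0.255% ± 0.0285 of the total in wild-type and 0.224% ± 0.026 in mutant plates (SD, n = 3 and 4). Small-subunit transcripts were 0.0967% ± 0.0113 and 0.0835% ± 0.0114. The ratio of large- to small-subunit transcripts was 2.03, 3.09 and 2.93 in wild-type plates against 3.08, 2.17, 2.93 and 2.66 in mutant plates, a spread that covers both genotypes.

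The members with a bacterial counterpart form the old core of the particle around the ribosomal RNA. Their summed share was 0.21%, 0.224% and 0.224% in wild-type plates against 0.165%, 0.171%, 0.205% and 0.192% in mutant plates, without overlap. The mitochondria-specific members, which cover the outside of the particle, held 0.123%, 0.143% and 0.133% in wild-type plates against 0.107%, 0.12%, 0.136% and 0.132% in mutant plates, and here the plates overlapped. Of 32 tested genes of the first kind 22 had a negative fold change (median -0.22), and of 23 of the second kind 12 (median -0.01). The difference between both kinds was not tested.

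**Figure D4:**
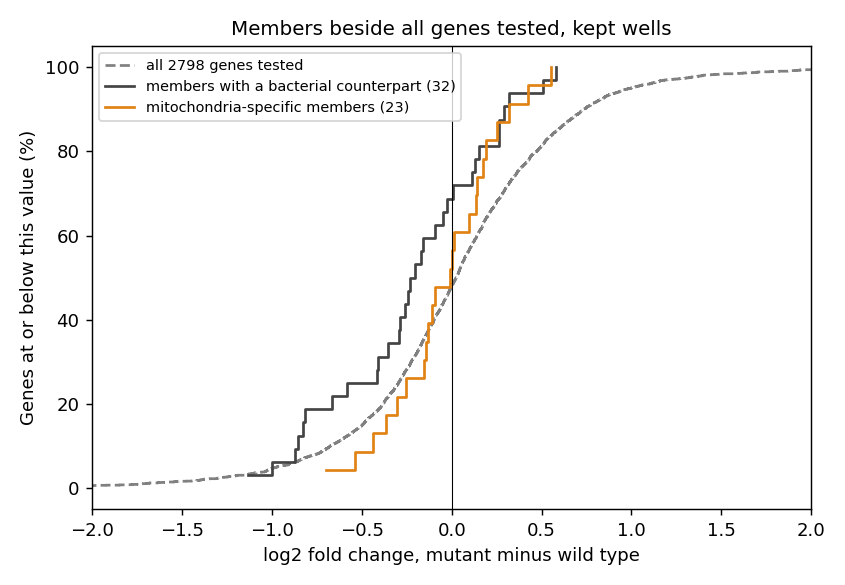
Percent of genes (y axis) at or below a given log2 fold change, mutant minus wild type (x axis), in kept wells. The dark line is the 32 tested members with a bacterial counterpart, the orange line the 23 mitochondria-specific members and the dashed grey line all 2798 tested genes. The dark line runs to the left of the grey line through the middle of the range (median -0.22 against 0.025), and the orange line lies near it (median -0.01).

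The runs differed in size for single members. Comparing mean log2(CPM + 1) within each run, 23 of the 55 tested members (41.8%) were lower in mutant plates in both runs and 8 (14.5%) higher in both, while 24 had opposite signs. Over all tested genes the shares were 28.5% and 29.3%. Member medians were -0.25 in run 1 and -0.15 in run 2. The plate values of 5 tested members (9.09%) did not overlap with the mutant plates lower, where this held for 4.36% of all tested genes. For 1 tested member (1.82%) they did not overlap with the mutant plates higher, against 5.83% of all tested genes. In cardiac marker wells the plates of 5 and 1 tested members likewise did not overlap, against 4.8% and 5.81% of all tested genes.

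Of the members that stood lower in mutant plates, MRPL14 (ENSDARG00000068886) was furthest from 0. It codes for a core large-subunit protein with counterparts in all ribosomes. It stood at 65.5, 77.5 and 57.2 CPM in wild-type plates and at 30.5, 25.4, 34.8 and 27.9 CPM in mutant plates. Every mutant plate was thus lower than every wild-type plate, by -1.20 on the log2 scale in run 1 and -1.07 in run 2. The fitted log2 fold change was -1.13 (SE 0.33, edgeR adjusted p = 0.18).

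The small-subunit gene mrps28 (ENSDARG00000041538) codes for the counterpart of the bacterial protein S1. It stood at 38.5, 43.7 and 43.7 CPM in wild-type plates and at 23.5, 21.8, 24.6 and 13.96 CPM in mutant plates, again without overlap (edgeR log2 fold change -1.001, SE 0.42, adjusted p = 0.345). The large-subunit gene MRPL19 (ENSDARG00000011885) stood at 61.6, 76.1 and 66.3 CPM in wild type and at 23.5, 14.5, 55.3 and 50.2 CPM in mutant plates. Its mutant plates fell into a low pair from run 1 and a pair nearer wild type from run 2 (edgeR log2 fold change -0.83, SE 0.36, adjusted p = 0.37). The difference was -1.68 within run 1 and -0.42 within run 2, and without wild-type plate 1, the only wild-type plate of run 1, the fitted value was -0.44.

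The split by run was wider for MRPL24 (ENSDARG00000019222), whose bacterial counterpart starts the assembly of the large subunit. Wild-type plates held 65.5, 50.7 and 40.7 CPM, and mutant plates 9.4, 7.26, 51.2 and 44.7 CPM. The smallest count of MRPL24 in a plate was 2 transcripts. The within-run difference was -2.84 in run 1 and 0.07 in run 2, and the genotypes overlapped (edgeR log2 fold change -0.87, SE 0.55, adjusted p = 0.54). Without wild-type plate 1 the fitted value was 0.06. The small-subunit gene MRPS10 (ENSDARG00000045913), which belongs to the head of that subunit, stood at 23.1, 42.3 and 33.1 CPM in wild type and at 14.1, 10.9, 14.3 and 27.9 CPM in mutant plates. Its differences were close in both runs, -0.85 and -0.87, with an edgeR adjusted p of 0.497.

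Non-overlapping plates with lower mutant values were also seen in MRPL17 (ENSDARG00000075677) and mrpl36 (ENSDARG00000070607), both large-subunit proteins with a bacterial counterpart. MRPL17 stood at 34.7, 29.6 and 36.1 CPM against 18.8, 21.8, 18.4 and 25.1 CPM (log2 fold change -0.66, SE 0.44). The counterpart of mrpl36 is a very small zinc-binding protein, and mrpl36 stood at 84.7, 122.6 and 85.8 CPM against 56.4, 76.3, 77.8 and 75.4 CPM (log2 fold change -0.42, SE 0.27). The edgeR adjusted p-values were 0.557 and 0.543.

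Among the 10 most abundant members mrpl36 was the 1 whose plates did not overlap. Each molecule is counted at 1 site near its end, so these CPM values are not divided by transcript length, and levels are not ranked between genes beyond this choice. MRPL28 (ENSDARG00000057805), a large-subunit protein, stood at 119.4, 125.4 and 132.5 CPM in wild type and at 108.1, 87.2, 192.4 and 145.1 CPM in mutant plates, with mutant plates on both sides of wild type (log2 fold change 0.15, SE 0.24). The small bacterial-type gene mrpl34 (ENSDARG00000092954) had the most transcripts of the family, 441. Its values were 96.3, 211.3 and 164.2 CPM in wild type and 68.1, 36.3, 155.6 and 117.2 CPM in mutant plates, lower in both runs but overlapping across them (edgeR log2 fold change -0.58, SE 0.27, adjusted p = 0.403). Without it the family share differed by -0.0386 points.

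MRPS34 (ENSDARG00000057910), a mitochondria-specific small-subunit protein, stood at 84.7, 115.5 and 108.4 CPM in wild type and at 84.6, 116.2, 126.9 and 111.6 CPM in mutant plates. Its ranges lay almost on top of each other (log2 fold change 0.14, SE 0.24). MRPS33 (ENSDARG00000020015), also mitochondria-specific, stood at 73.2, 92.98 and 69.3 CPM against 77.5, 101.7, 94.1 and 111.6 CPM (log2 fold change 0.32, SE 0.26). Near the exit of the tunnel through which new proteins leave the large subunit, MRPL23 (ENSDARG00000045696) stood at 61.6, 114.1 and 108.4 CPM against 103.4, 141.6, 100.3 and 108.9 CPM. Its lowest value was wild-type plate 1, and the run differences had opposite signs, 0.96 and -0.09. MRPL4 (ENSDARG00000058824), another protein of the tunnel wall, stood at 80.9, 133.8 and 111.4 CPM against 68.1, 79.9, 118.7 and 75.4 CPM (log2 fold change -0.26, SE 0.26).

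MRPL11 (ENSDARG00000013075) codes for a protein at the base of the stalk that receives translation factors. It stood at 77.02, 88.7 and 84.3 CPM in wild type and at 58.7, 112.6, 65.5 and 92.1 CPM in mutant plates (log2 fold change -0.05, SE 0.30). The mitochondria-specific large-subunit gene MRPL37 (ENSDARG00000062916) stood at 80.9, 95.8 and 90.4 CPM against 75.2, 108.96, 106.4 and 66.99 CPM, a fitted log2 fold change of 0.002 (SE 0.28). In both genes the wild-type range lay inside the mutant range. The edgeR adjusted p-values of the abundant members other than mrpl34 and mrpl36 ran from 0.45 (MRPL2) to 0.998 (MRPL37).

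**Figure D5:**
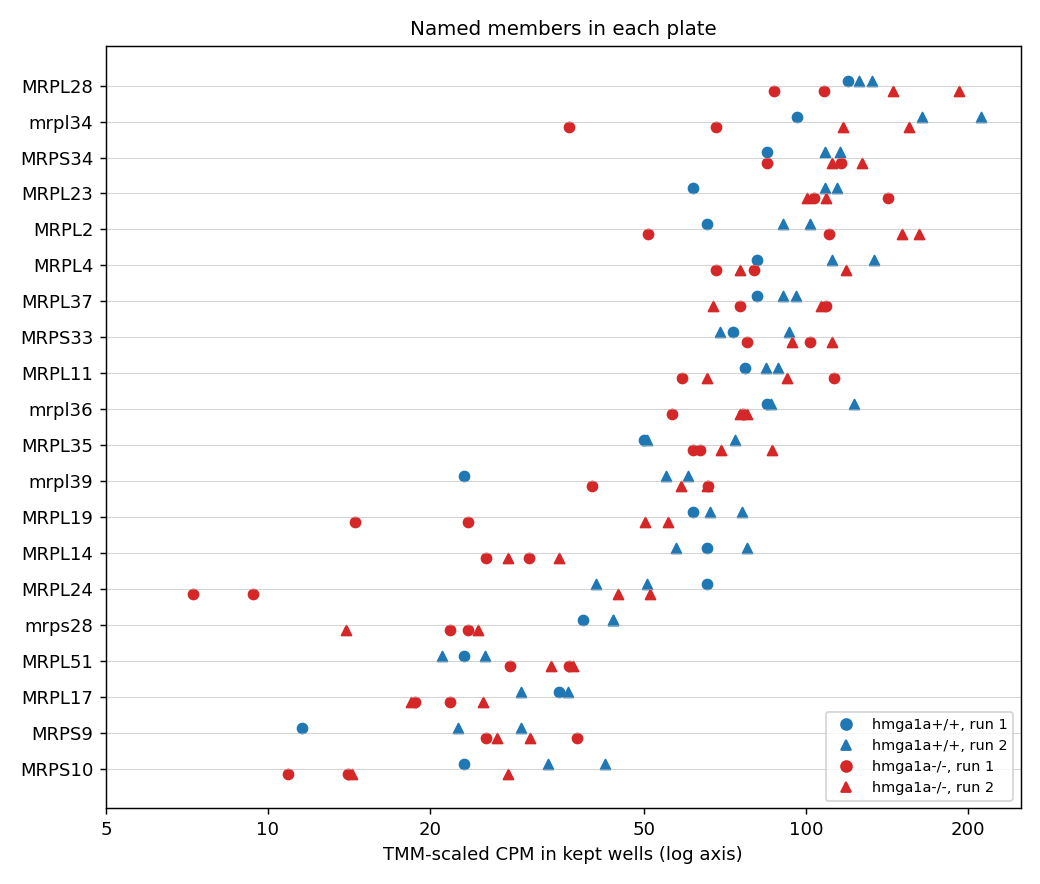
CPM in kept wells on a log axis (x axis) for 20 tested members in each plate, blue for wild type and red for mutant, circles for run 1 and triangles for run 2. The red points of MRPL14, mrps28, MRPL19, MRPL17 and mrpl36 all lie to the left of the blue ones, those of MRPL51 all to the right, and MRPL24 shows 2 red circles near 10 CPM apart from the rest.

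At the other end, MRPL2 (ENSDARG00000062568), a core protein next to the catalytic centre, had the highest fold change of the family. It stood at 65.5, 101.4 and 90.4 CPM in wild type and at 110.4, 50.8, 161.7 and 150.7 CPM in mutant plates. Mutant plate 2 was the lowest of all plates and mutant plates 3 and 4 were the highest (edgeR log2 fold change 0.58, SE 0.29, adjusted p = 0.45). The mitochondria-specific MRPL51 (ENSDARG00000041340) was the 1 tested member with every mutant plate above every wild-type plate. It stood at 23.1, 25.4 and 21.1 CPM against 28.2, 36.3, 36.8 and 33.5 CPM (edgeR log2 fold change 0.55, SE 0.42, adjusted p = 0.631).

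MRPS9 (ENSDARG00000061505), a core protein of the small-subunit head, stood at 11.6, 29.6 and 22.6 CPM against 37.6, 25.4, 26.6 and 30.7 CPM (log2 fold change 0.51, SE 0.49). The mitochondria-specific mrpl39 (ENSDARG00000041570) stood at 23.1, 54.9 and 60.2 CPM against 65.8, 39.95, 65.5 and 58.6 CPM (log2 fold change 0.43, SE 0.36). For both genes wild-type plate 1 was the lowest plate and run 1 held the larger difference, 1.35 for MRPS9 and 1.12 for mrpl39, against 0.14 and 0.10 in run 2. Without wild-type plate 1 the fitted values were 0.11 and 0.10. MRPL35 (ENSDARG00000070589), a large-subunit protein with a bacterial counterpart, stood at 50.1, 50.7 and 73.8 CPM against 63.4, 61.7, 69.6 and 86.5 CPM, overlapping through wild-type plate 3 (log2 fold change 0.32, SE 0.29).

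Below the filter stood 9 members with 16 to 68 transcripts over all kept wells, so no fold change was fitted for them. The tested members had at least 61 transcripts, and MRPL44, with 61, passed while MRPL49, with 68, did not, since the filter acts on the CPM of single plates rather than on the sum. MRPL49 (ENSDARG00000075422) held 3.48, 21 and 18.96 CPM in wild-type plates against 0, 12.7, 47.5 and 35.7 CPM in mutant plates. A count of 0 in mutant plate 1 allows up to 6.41 CPM before TMM scaling, while the values beside it are TMM-scaled. The genes mrps6 of the small subunit (60 transcripts) and mrpl9 of the large subunit (56 transcripts) ranged from 9.95 to 27.8 CPM and from 6.2 to 31.6 CPM over the 7 plates. The others were MRPS17 with 51, mrpl58 with 48, mrps27 with 45, MRPS23 with 41, MRPL1 with 26 and MRPS22 with 16 transcripts. The large-subunit gene MRPL1 (ENSDARG00000054606) held 10.4, 12 and 11.1 CPM in wild-type plates and 3.98, 0, 6.2 and 7.64 CPM in mutant plates. Its plates did not overlap, but no plate held more than 8 of its transcripts. Its 0 in mutant plate 2 allows up to 10.8 CPM before TMM scaling, a limit that cannot be set directly against the TMM-scaled values. The protein of mrpl58 frees stalled peptides from the ribosome. Defects of MRPL44 and MRPS22 are known in human cardiomyopathy, and these genes were picked out for that after their values were seen. MRPL44 stood at 34.7, 28.2 and 10.5 CPM against 9.4, 32.7, 6.14 and 25.1 CPM, with each genotype spanning most of the range.

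Only 15 genes of 5 lists around the mitochondrial ribosome could be tested in kept wells. Of 4 matched ribosomal proteins named outside the prefix all were tested, 3 had a negative fold change, and AURKAIP1 and DAP3, both of the small subunit, stood at 0.56 (SE 0.44) and -0.41 (SE 0.46). OXA1L, which inserts new proteins into the inner membrane, was the 1 tested gene of 10 matched translation factors and stood at -0.66 (SE 0.31, edgeR adjusted p = 0.42). Of 23 matched assembly genes 5 were tested. The large-subunit assembly factor malsu1 stood at -0.82 (SE 0.39, edgeR adjusted p = 0.417) and the GTPase gene GTPBP10 at 0.43 (SE 0.94). Of 5 transcription and RNA stability genes 3 were tested, with LRPPRC, which stabilises mitochondrial messengers, at 0.90 (SE 0.41) and the transcription factor gene tfb2m at -0.85 (SE 0.51). Of 9 mitochondrial aminoacyl-tRNA synthetases 2 were tested, FARS2 at 0.95 (SE 0.71) and HARS2 at -0.39 (SE 0.59). None of the 15 was called by edgeR, DESeq2 or limma, or had an unadjusted edgeR p under 0.05. With 0.5% of all tested genes called by edgeR, this number of genes is too small to read anything from a count of 0. In cardiac marker wells 2 of 14 had an unadjusted edgeR p under 0.05, malsu1 as lower and LRPPRC as higher, where 6.35% and 7.82% of all tested genes did.

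The messengers that the mitochondrial ribosome translates stood on the other side of 0. Of 13 mitochondrially encoded protein genes, all tested in kept wells, 12 stood above 0, with a median log2 fold change of 0.38, against 0.025 over all genes. None was called by edgeR or limma and 1 by DESeq2 (MT-ND5), while 7 had an unadjusted edgeR p under 0.05 as higher in mutant plates, where 7.58% of all tested genes did. The complex I genes MT-ND6 and MT-ND5 stood furthest from 0, at 1.02 (SE 0.40, edgeR adjusted p = 0.304) and 0.62 (SE 0.14, edgeR adjusted p = 0.107). With mitochondrially encoded transcripts added to the total, the family share differed by -0.0473 points. In cardiac marker wells 12 of the 13 also stood above 0 (median 0.39), and edgeR, DESeq2 and limma called 0. There 7 had an unadjusted edgeR p under 0.05 as higher, against 7.82% of all tested genes. Plates did not overlap, with mutant higher, for 4 of the 13 in kept wells and 2 in cardiac marker wells, against 5.83% and 5.81% of all tested genes. All 13 are coded by mitochondrial DNA and may vary together, so these counts do not stand for 13 separate results. Summed over kept wells they overlapped between the genotypes, at 3.80% to 5.55% of transcripts in wild-type and 4.08% to 7.33% in mutant plates.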

How the data were processed

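The tables deposited by the authors, 1 per plate, hold estimated counts, with genes in rows and wells in columns, made by CEL-seq2 with UMIs (random barcodes that mark each molecule) per the labels' protocols. The submitters' processing notes list BWA 0.6.2. Build, annotation and strand setting are not given in the sources used. Each of the 857630 non-zero values lay within 0.0051 of what an integer UMI count gives after correction for repeated draws from 4096 barcodes, although the labels' protocols describe a shorter UMI. Symbols came from a table of Ensembl names covering 13087 of 16394 gene rows, and 13 mitochondrially encoded genes were recognised by symbol. Any mitochondrially encoded row without a symbol would have stayed in the totals. A gene absent from a table was set to 0.

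Estimates were summed per plate over kept wells, rounded and tested over all genes with edgeR 4.0.16 (filterByExpr by genotype, TMM, quasi-likelihood F test, run as covariate, Benjamini-Hochberg adjusted p under 0.05). The SE came from the F statistic. CPM are TMM-scaled, over the genes tested for tested members and over all genes for the others. DESeq2 1.42.0, limma 3.58.1 (log2 CPM, prior count 2), other well filters, recovered UMIs, thinning and leaving out plates were alternatives. A gene to which DESeq2 gave no adjusted p was counted as tested and not called. The fit was checked on data simulated without a run effect. How often it would call changes as small as those of most members was not tested. Totals per plate and the small counts per member limit precision. The limit for a count of 0 (3 counts) is not TMM-scaled and covers counting error only.

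Members named with values were the 10 most abundant tested members, the 5 with the highest and the 5 with the lowest fold change, those whose plates do not overlap (tested or not), any called, and the 3 most abundant under the filter. From each other list every called gene or the 2 furthest from 0 were named. The members and lists were chosen with earlier results of these data known. Replicates were numbered in order of deposit. No doublet caller was run, since plates were sorted 1 cell per well. In RefSeq assembly GRCz12tu 18 of the 64 members overlap another gene, among them MRPL24, MRPL51, MRPL11, MRPL4, MRPL2, MRPL37 and mrpl34, and reads of such pairs may not be separable.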

Additional observations from a re-analysis of the deposited data

Results flagged for a closer look

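The gene mrpl36 stood apart in mutant plate 1, with 56.4 CPM, while mutant plates 2 to 4 lay between 75.4 and 77.8 CPM. With 32 groups of 4 mutant plates looked at, chance sets apart about 1 in 20.

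The 1655 wells under the filter of 1000 transcripts also held family transcripts. The main comparisons did not use these wells, and an alternative took in those of at least 500 transcripts. Their pooled share was 0.335%, from 1298 family transcripts, where 3 counts would give 0.000774%. By plate it was 0.345% to 0.365% in wild type and 0.291% to 0.342% in mutant wells.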

How the results depend on the processing

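The family share was lower in mutant plates under all 19 alternatives, by between -0.0565 and -0.0196 percentage points, which includes leaving out each plate, single runs, thinned wells and other totals. No member was called in any of the 20 alternatives, in kept wells or in cardiac marker wells, with 0 to 6 and 0 to 5 members at an unadjusted p under 0.05. In the main fits 3 members reached that edgeR level in each set of wells, where 12.8% and 14.2% of all tested genes did. Run 1 alone holds 1 wild-type plate, assumed to vary like the mutant plates, and says little on stability. The median member fold change stayed below 0 in 19 of 20 alternatives for each set of wells, between -0.15 and -0.10 in kept wells and between -0.16 and -0.10 in cardiac marker wells when a plate was left out. It was 0.044 and 0.034 in thinned wells, where fewer members passed the filter, and -0.26 in cardiac marker wells of run 1 alone. The members in the thinned fits, 22 and 23, had medians of -0.071 and -0.065 without thinning, so the sign also changed for the same members. Against -0.13 in kept wells it was -0.26 without a filter on low counts and -0.23 in run 1 alone, and against -0.12 in cardiac marker wells it was -0.22 without a filter and -0.19 with wells of at least 500 transcripts. Without the filter the median over all genes in kept wells was lower as well, -0.14 against 0.025 with the filter. Among the 20 named tested members 5 changed sign in some alternative, none of them called.

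The count of all genes called was 14 in kept wells and 27 in cardiac marker wells. It was 9 and 13 without the run covariate, 47 and 59 with DESeq2, 83 and 82 without a filter on low counts, 54 and 60 in thinned wells, 8 and 97 in run 1 alone, 29 and 43 in run 2 alone, and 27 and 51 without both mutant plates of run 1. Leaving out 1 plate gave 7 to 20 and 11 to 37. In kept wells it was 7 without wild-type plate 1 and 9 without wild-type plate 2 or 3. In cardiac marker wells it was 17 without wild-type plate 3, 11 without mutant plate 3 and 16 without mutant plate 4. The cause was not tested. Leaving out the row without a symbol, or both mutant plates of run 1, was chosen after seeing the data. No paired analysis was possible because the labels give no replicate numbers.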

Other observations

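In RefSeq assembly GRCz12tu MRPL24 and mrpl9 both overlap the gene mllt11. Mutant plates 1 and 2, both of run 1, held 9.4 and 7.26 CPM of MRPL24, while mrpl9 was at 13.9 and 28.7 CPM there. Mutant plates 3 and 4, of run 2, held 51.2 and 44.7 CPM of MRPL24, and mrpl9 was at 6.2 and 7.64 CPM. Wild-type plates held 65.5, 50.7 and 40.7 CPM of MRPL24 and 10.4, 16.5 and 31.6 CPM of mrpl9. The smallest count in a plate was 2 transcripts for MRPL24 and 3 for mrpl9. CPM were scaled over tested genes for MRPL24 and over all genes for mrpl9. A link between their levels was not tested.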
